A study of Mus musculus with 10 samples.

Results

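The genes described here are 10 genes that cytotoxic lymphocytes use to kill other cells. They are the granzymes *Gzma*, *Gzmb*, *Gzmc*, *Gzmk* and *Gzmm*, the perforin gene *Prf1*, the Fas ligand gene *Fasl*, and *Nkg7*, *Lamp1* and *Srgn*. They were taken by name from the 25814 genes of the deposited tables, and each name occurred once in all 10 tables. The study asked how CD8+ T cells and keratinocytes influence each other in culture. The mice were C57/B6, with 8 to 12 weeks as the general age in the methods, without a transgene or deletion in the labels of these samples. There were 5 groups with 2 RNA libraries each. Primary keratinocytes from adult tails were cultured alone or together with T cells, which were washed off before both cell types were collected separately. Splenic T cells enriched with CD8 microbeads were stimulated through CD3 and CD28 with Abs for 1 d in X-vivo medium (activated T cells). Further T cells were activated for 1 d and then kept for 1 d in keratinocyte medium mixed 4:1 with X-vivo medium (T cells in keratinocyte medium), or for 1 d together with keratinocytes (co-cultured T cells). The T-cell labels state a co-culture of 1 d, but the design text states 1 h. Activated T cells lacked the additional day and the change of medium, and the labels name no CD3 and CD28 stimulation during that day. Co-cultured T cells also differed from them by the presence of keratinocytes. These differences cannot be told apart in any comparison with activated T cells. Nothing says that the 2 libraries of a group came from separate mice, so p-values measure only the spread between these libraries, which may be technical.

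Cytotoxic T cells carry granzymes and perforin in secretory lysosomes. Upon contact with a target cell these granules fuse with the plasma membrane, perforin forms pores, and granzymes enter the target and cleave proteins that start its death. The proteoglycan serglycin holds the granzymes in the granule, and LAMP1 lies in the granule membrane and appears on the surface of a cell that has degranulated. Fas ligand kills by a separate route, through the receptor Fas on the target.

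*Gzmb* lies on chromosome 14 (GRCm38, 56258838 to 56262260, minus strand) and *Gzmc* on the same strand at 56231441 to 56234656, with 24.2 kb between them. *Prf1* lies on chromosome 10 (61297833 to 61304680, plus strand). The 250 bases upstream of their RefSeq transcription starts are shown (RefSeq, GRCm38.p6), since *Gzmb* and *Prf1* are the members called lower in the tests below and *Gzmc* neighbours *Gzmb*. They span chr14:56262335-56262584 (*Gzmb*, minus strand), chr14:56234658-56234907 (*Gzmc*, minus strand) and chr10:61297586-61297835 (*Prf1*, plus strand). Capitals mark matches on either strand to TGANTCA (AP-1), TGTGGTT (RUNX) and TGACGT (the core of a cAMP response element, CRE).
Gzmb: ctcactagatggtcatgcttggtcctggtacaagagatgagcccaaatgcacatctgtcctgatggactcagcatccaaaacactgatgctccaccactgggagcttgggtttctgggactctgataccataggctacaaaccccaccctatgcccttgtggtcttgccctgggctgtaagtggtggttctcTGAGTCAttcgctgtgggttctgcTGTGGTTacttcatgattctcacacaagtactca
Gzmc: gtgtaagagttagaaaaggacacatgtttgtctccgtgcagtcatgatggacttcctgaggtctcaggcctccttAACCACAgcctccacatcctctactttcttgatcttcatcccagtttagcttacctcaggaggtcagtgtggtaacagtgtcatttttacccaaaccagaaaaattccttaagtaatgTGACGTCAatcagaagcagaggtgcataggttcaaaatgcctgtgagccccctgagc
Prf1: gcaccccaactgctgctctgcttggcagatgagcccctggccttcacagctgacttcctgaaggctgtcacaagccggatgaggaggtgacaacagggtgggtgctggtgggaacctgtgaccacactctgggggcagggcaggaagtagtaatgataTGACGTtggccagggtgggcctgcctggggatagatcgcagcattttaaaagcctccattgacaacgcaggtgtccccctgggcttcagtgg
The *Gzmb* stretch held 1 AP-1 and 1 RUNX match, and the *Prf1* stretch 1 CRE core. The *Gzmc* stretch held 1 RUNX match and 2 CRE core matches that overlap on opposite strands. Of all 32851 RefSeq promoters of this length, 6.75% held the AP-1 letters, 4.40% the RUNX letters and 6.47% the CRE core. All 10 genes had a RefSeq promoter, and among the others *Gzma* held 1 RUNX match and 1 of 2 starts of *Srgn* 1 RUNX and 1 CRE core match. A match of letters is a description and not a binding site.

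The libraries held 12864931 to 18019609 exon reads. Levels are given as RPKM, exon reads scaled to exon length and library depth, and 3 reads on 1 kb of exon correspond to 0.158 to 0.212 RPKM. The T-cell libraries held the CD8 markers *Cd8a* and *Cd8b1* at a summed 251 to 1096 RPKM, against 0.224 to 3.16 RPKM in the keratinocyte libraries. Of 10 keratinocyte markers the sum was 12410 to 16960 RPKM in the keratinocyte libraries and 6.43 to 80.7 RPKM in the T-cell libraries. The keratinocyte libraries also contained RNA of other T-cell genes. *Cd4* was at 11.4 and 43.5 RPKM without and at 15.0 and 84.5 RPKM with co-culture. In sum, 4 markers of CD4+ and regulatory T cells reached 38.0 to 111 RPKM, against 21.2 to 128 RPKM in the T-cell libraries. These similar ranges did not hold for each marker. *Zbtb7b* was at 12.7 to 29.2 RPKM in the keratinocyte libraries, against 1.42 to 6.60 RPKM in the T-cell libraries. It made up 24.9 of the 38.0 RPKM in replicate 1 of the keratinocytes alone. *Foxp3* was at 0.54 to 2.7 RPKM in the keratinocyte libraries and at 0.94 to 6.6 RPKM in the T-cell libraries. Reads over the whole αβ receptor gene *Trac* numbered 557 to 3016 in the keratinocyte libraries. Those of the γδ receptor gene *Trdc* numbered 0 to 8 there (neither gene has an exon model in the tables). *Cd4* also differed between the activated T cells, with 16.8 RPKM in replicate 1 and 102 RPKM in replicate 2. Mast cell markers reached at most 0.400 RPKM in sum in any library.

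**Figure D1:**
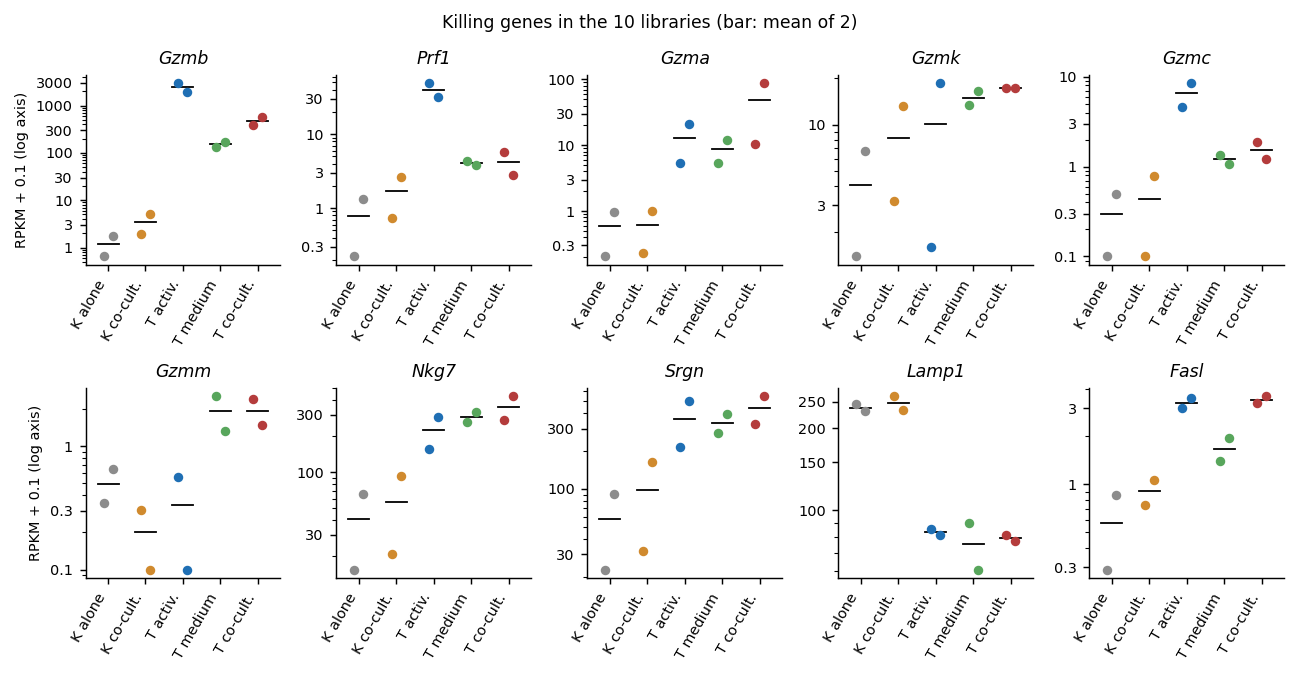
RNA levels of the 10 killing genes in the 10 libraries, as RPKM + 0.1 on a log axis with its own range in each panel (K, keratinocytes; T, CD8+ T cells). Points are libraries and bars are means of 2. Activated T cells are highest for Gzmb (1968 and 2966 RPKM) and Prf1 (31.2 and 48.8 RPKM), whereas Lamp1 is highest in the keratinocytes.

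Granzyme B, a serine protease that starts apoptosis in target cells, had the highest RNA level of the 10 genes in activated T cells. In the order of the groups by mean level, activated T cells were followed by co-cultured T cells, T cells in keratinocyte medium, co-cultured keratinocytes and keratinocytes alone, and the libraries of neighbouring groups did not overlap. *Gzmb* stood at 2966 and 1968 RPKM in the activated T cells. T cells in keratinocyte medium had 134 and 174 RPKM and co-cultured T cells 391 and 574 RPKM. The means were 2467 ± 706, 154 ± 28.1 and 482 ± 129 RPKM (SD, n = 2), so that *Gzmb* was 16 fold lower in keratinocyte medium and 5.12 fold lower in co-culture than in activated T cells. These levels rest on 2976 to 71605 exon reads per library, and its introns held at most 57 reads.

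Perforin, the pore-forming protein, was likewise highest in activated T cells. *Prf1* stood at 48.8 and 31.2 RPKM in activated T cells. In keratinocyte medium it was at 4.28 and 3.75 RPKM, and in co-culture at 5.59 and 2.68 RPKM. The means were 40.0 ± 12.4, 4.02 ± 0.380 and 4.14 ± 2.06 RPKM (SD, n = 2). The latter groups overlapped with each other, and both lay below the activated T cells, by 9.96 fold in keratinocyte medium and 9.67 fold in co-culture between the means.

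*Gzmc*, another granzyme of the granzyme B locus, had a low level, with 4.46 and 8.39 RPKM in activated T cells. It was at 1.23 and 0.973 RPKM in keratinocyte medium and at 1.76 and 1.11 RPKM in co-culture, below both activated libraries. The co-cultured value of 1.11 RPKM rests on 14 exon reads, of which 10 mapped uniquely. Of 11 further granzymes and proteases of this locus, such as *Gzmd*, *Gzme* and the mast cell proteases, none had enough reads for the test in any comparison.

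*Gzma* and *Gzmk* encode tryptase-like granzymes and did not share the order of *Gzmb*. *Gzma* stood at 5.32 and 20.6 RPKM in activated T cells, 5.21 and 11.9 RPKM in keratinocyte medium, and 10.3 and 87.6 RPKM in co-culture. The mean of the co-cultured T cells, 49.0 ± 54.7 RPKM (SD, n = 2), therefore rests on 1 library. *Gzmk* stood at 1.5 and 18.5 RPKM in activated T cells, 13.4 and 16.3 RPKM in keratinocyte medium, and 17.3 and 17.1 RPKM in co-culture. Its activated libraries lay on either side of all other T-cell libraries, and *Cd4* was likewise lowest and highest in these 2 libraries. This was not particular to *Cd4*. *Lyz2*, a marker of myeloid cells, stood at 10.6 and 57.4 RPKM in them and at 31.4 to 39.9 RPKM in the other T cells. Another myeloid marker, *Cd68*, did not share this order (3.83 and 4.42 against 5.56 to 17.8 RPKM). *Gzmm*, a granzyme linked to innate-like lymphocytes, was near the floor, with 10 and 0 exon reads in activated T cells and 25 to 48 in the other T-cell groups. This corresponds to 0.462 and 0 RPKM in activated T cells, 2.41 and 1.22 RPKM in keratinocyte medium, and 2.30 and 1.37 RPKM in co-culture.

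The genes of the granule itself were abundant in all T-cell groups. *Srgn*, which encodes serglycin, stood at 217 and 497 RPKM in activated T cells, 278 and 393 RPKM in keratinocyte medium, and 328 and 543 RPKM in co-culture. *Nkg7*, a granule membrane gene of killer lymphocytes, stood at 157 and 289 RPKM, 262 and 317 RPKM, and 270 and 426 RPKM in the same groups. For both genes the ranges of the 3 T-cell groups overlapped. *Lamp1* was the only member whose level in every keratinocyte library exceeded that in every T-cell library, with 231 to 262 RPKM against 60.5 to 89.6 RPKM in the T cells. Between 32.4% and 49.9% of the *Lamp1* exon reads mapped uniquely, so its level depends on how the other reads were assigned. For the other members all or nearly all exon reads were unique, apart from the *Gzmc* library named above. *Lamp1* overlaps *Grtp1* and *Gzmk* overlaps *Esm1* on the opposite strand, and these neighbours had at most 129 and 47 exon reads.

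*Fasl* was low in all T-cell groups, with 39 to 95 exon reads per library. It stood at 2.92 and 3.37 RPKM in activated T cells and at 3.15 and 3.47 RPKM in co-culture, ranges that overlapped. T cells in keratinocyte medium had 1.30 and 1.86 RPKM, below all libraries of both other T-cell groups.

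To test the differences among the T cells, edgeR's quasi-likelihood test was run on the exon reads of the 6 T-cell libraries, with Benjamini-Hochberg adjustment over 11863 genes, and a gene was called at an adjusted p under 0.05. In T cells in keratinocyte medium against activated T cells, 2.32% of all genes tested were called higher and 4.22% lower. Of the 10 members 2 were called lower and none higher. *Gzmb* fell by 3.84 on the log2 scale (SE 0.417, adjusted p 0.0106) and *Prf1* fell by 3.16 (SE 0.436, adjusted p 0.0138). *Gzmc* had a log2 fold change of -2.41 with a 95% interval of -4.32 to -0.505 and an adjusted p of 0.120. The other 7 members had log2 fold changes from -0.83 (*Fasl*) to 3.07 (*Gzmm*, SE 1.42). The median over the members was -0.24, and that over all genes tested -0.01.

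In co-cultured T cells against activated T cells, 4.59% of all genes tested were called higher and 5.72% lower, and again *Gzmb* and *Prf1* were the 2 members called. *Gzmb* fell by 2.13 on the log2 scale (SE 0.388, adjusted p 0.0160) and *Prf1* fell by 3.1 (SE 0.435, adjusted p 0.00780). *Gzma* had a log2 fold change of 2.16 with an interval of -0.269 to 4.58, and *Gzmc* one of -1.99 with an interval of -3.87 to -0.119 (adjusted p 0.221 and 0.153). The median over the members was 0.38 and that over all genes tested -0.01. This comparison and the previous one share the activated T cells, so their calls are not independent. Without replicate 1 of the activated T cells, the adjusted p of *Gzmb* was 0.0784 in co-culture (log2 fold change -1.85) and that of *Prf1* 0.0638 in keratinocyte medium (-2.85). In keratinocyte medium the call of *Prf1* was also lost without either library of that group (adjusted p 0.0710 and 0.0765), and that of *Gzmb* without its replicate 2 (0.0521, log2 fold change -4.12). In 1 fit of all 10 libraries *Gzmb* remained called in keratinocyte medium, whereas *Prf1* in keratinocyte medium (0.0937) and both genes in co-culture (0.0851 and 0.0792) were not. *Gzmk* was called higher in both comparisons where replicate 2 of the activated T cells was left out, with log2 fold changes of 3.52 in medium and 3.76 in co-culture (adjusted p 0.0321 and 0.0193). *Gzma* was called higher in co-culture without replicate 1 of the co-cultured T cells (3.02, adjusted p 0.0267), and with no filter on low counts (2.18, adjusted p 0.000269), whereas its log2 fold change was -0.26 without replicate 2. Leaving out a library leaves 1 in its group, which is then assumed to vary like the other groups. *Gzmc* was called lower by limma on log2(RPKM + 1) in both comparisons (adjusted p 0.0328 and 0.0335), by DESeq2 in keratinocyte medium (0.0475) and by limma on log2(RPKM + 0.1) in co-culture (0.0473).

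By their labels the co-cultured T cells differ from those in keratinocyte medium by the presence of keratinocytes. The summed level of 4 B-cell markers differed as well, with 25.3 and 53.1 RPKM in medium and 4.03 and 10.4 RPKM in co-culture, and its part in the results was not tested. In this comparison 0.261% of all genes tested were called higher and 0% lower, and none of the 10 members was called. For the direction without a call, 89 genes were lower at an unadjusted p under 0.05, and DESeq2 called 8. *Gzmb* was 3.13 fold higher in co-culture between the means, with a log2 fold change of 1.71, a 95% interval of 0.824 to 2.59 and an adjusted p of 0.310. DESeq2 gave nearly the same log2 fold change of 1.71 with an adjusted p of 0.00735, and edgeR with no filter on low counts one of 1.70 with an adjusted p of 0.00141, so that the call depended on the tool and the filter. *Gzma* had a log2 fold change of 2.61 (adjusted p 1), which was 0.19 without replicate 2 of the co-cultured T cells. *Fasl* had one of 1.11 with an interval of -0.188 to 2.40 (adjusted p 1). *Prf1* differed by 0.06 with an interval of -0.875 to 1.00.

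**Figure D2:**
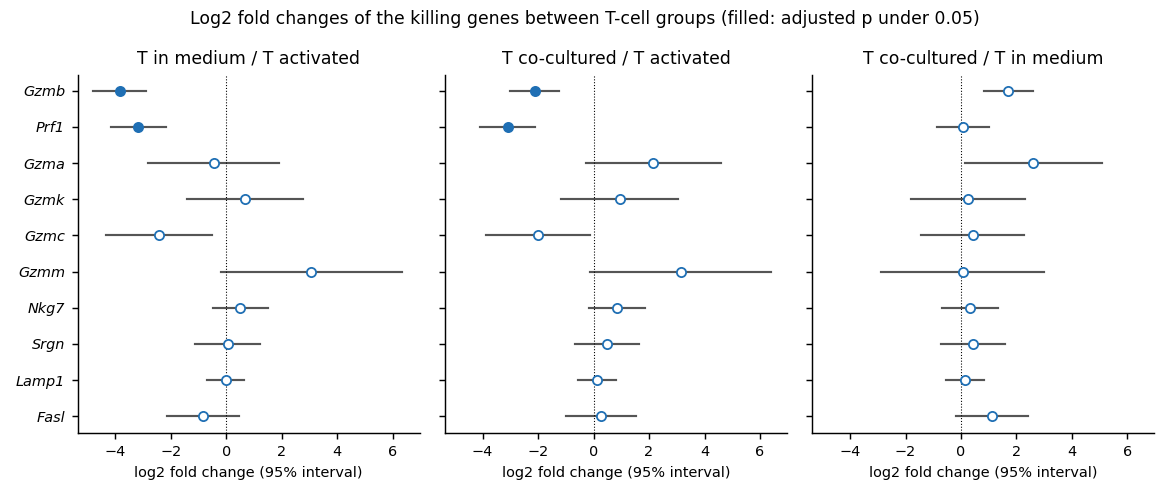
Log2 fold changes of the 10 killing genes in the 3 comparisons of T-cell groups, with lines for the 95% interval and filled points for an adjusted p under 0.05. Gzmb (-3.84 and -2.13) and Prf1 (-3.16 and -3.1) are filled in both comparisons with activated T cells, and no point is filled in the comparison of co-cultured T cells with T cells in keratinocyte medium.

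In bulk RNA fewer cells of a type and less RNA per cell cannot be told apart, so *Gzmb* and *Prf1* were also set against T-cell markers of the same library. The summed *Cd8a* and *Cd8b1* level was 454 and 251 RPKM in activated T cells, 1096 and 599 RPKM in keratinocyte medium, and 994 and 536 RPKM in co-culture. *Gzmb* per *Cd8a* and *Cd8b1* was 6.54 and 7.84 in activated T cells, 0.122 and 0.290 in keratinocyte medium, and 0.394 and 1.07 in co-culture. The ratio of the means was 34.8 in keratinocyte medium and 9.82 in co-culture. *Prf1* per *Cd8a* and *Cd8b1* was 0.108 and 0.124 in activated T cells, 0.00391 and 0.00626 in keratinocyte medium, and 0.00563 and 0.00500 in co-culture. Per *Cd3d*, *Cd3e* and *Cd3g* the activated libraries were farther apart, at 8.26 and 2.79 for *Gzmb* and 0.136 and 0.0442 for *Prf1*. On this scale *Gzmb* was 37.8 fold and *Prf1* 23.6 fold higher in activated T cells than in keratinocyte medium. These ratios exceed those of the RPKM values, since the marker levels were themselves higher in both later groups. The marker differences did not pass the test, with adjusted p of 0.0981 for *Cd8a* and 0.0834 for *Cd8b1* in keratinocyte medium.

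**Figure D3:**
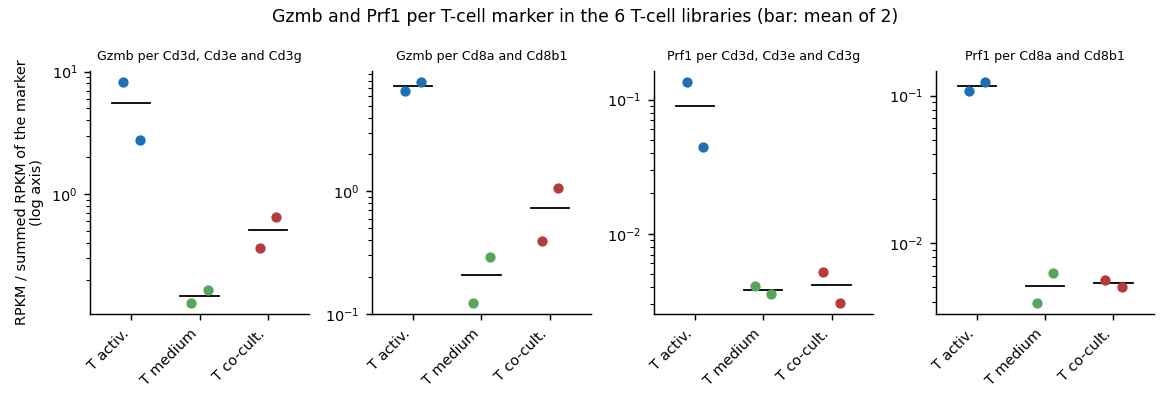
Gzmb and Prf1 RPKM divided by the summed RPKM of T-cell markers in the 6 T-cell libraries, on log axes (points, libraries; bars, means of 2). Activated T cells lie above the other groups for both genes and both markers. For Gzmb per Cd8a and Cd8b1 they are at 6.54 and 7.84, against at most 1.07 elsewhere.

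In the keratinocyte libraries the killing genes split by level. *Gzmb* stood at 0.550 and 1.64 RPKM (15 and 40 exon reads) without co-culture, and after co-culture at 1.79 and 5.11 RPKM (39 and 121 reads). *Prf1* stood at 0.122 and 1.23 RPKM without co-culture and at 0.637 and 2.56 RPKM with it. These levels were at most 5.11 RPKM, whereas those of the granule genes were higher. Without co-culture *Nkg7* was at 15.3 and 66.3 RPKM and with it at 20.8 and 92.3 RPKM. For *Srgn* the values were 22.6 and 91.2 RPKM, and 31.8 and 163 RPKM. *Gzmk* had 1.29 and 6.60 RPKM without and 3.08 and 13.2 RPKM with co-culture, so that 3 of 4 keratinocyte libraries lay within the range of the T cells. For these genes replicate 2 exceeded replicate 1 in each group, by 4.33 and 4.45 fold for *Nkg7*, 4.04 and 5.11 fold for *Srgn*, and 5.12 and 4.28 fold for *Gzmk*. *Cd4* differed likewise, by 3.81 and 5.64 fold, and *Cd3e* by 3.94 and 4.58 fold.

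*Srgn* per *Cd4* was 1.98, 2.10, 2.13 and 1.93 in the 4 keratinocyte libraries, and *Nkg7* per *Cd4* was 1.34, 1.52, 1.39 and 1.09. In the T-cell libraries *Srgn* per *Cd4* ranged from 4.13 to 12.9. *Gzmb* per *Cd4* was 0.0482 and 0.0376 in keratinocytes alone and 0.119 and 0.0605 in co-cultured keratinocytes, against 2.00 to 176 in the T-cell libraries. The part of RNA of T cells or other immune cells in the keratinocyte values was not tested. *Lamp1* did not follow *Cd4* and *Cd3e*, and its replicates differed by 1.06 and 1.12 fold.

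**Figure D4:**
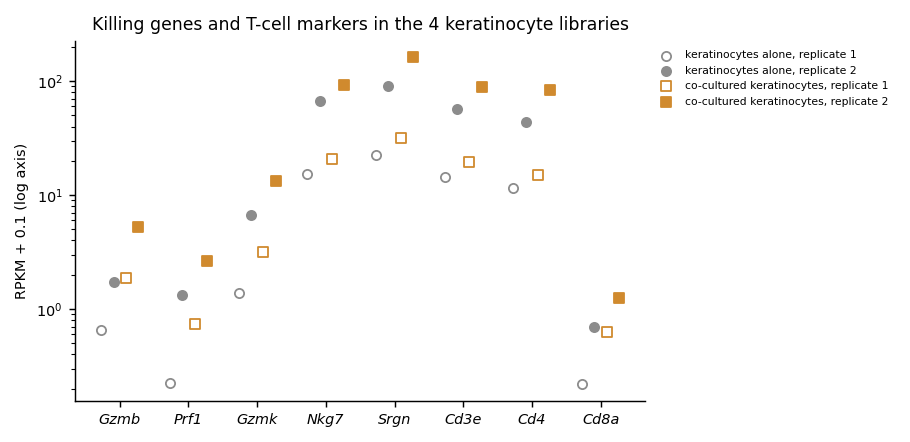
RNA levels of 5 killing genes and 3 T-cell markers in the 4 keratinocyte libraries, as RPKM + 0.1 on a log axis (circles, keratinocytes alone; squares, after co-culture; filled, replicate 2). Filled points lie above open points of the same group for every gene, whereas Cd8a stays at 0.118 to 1.16 RPKM.

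In the fit of the 4 keratinocyte libraries 0% of 12515 genes were called higher and 0% lower, so none of the 8 members with enough reads for the test was called. *Gzmc* and *Gzmm*, with at most 10 and 12 exon reads in these libraries, were left out. At an unadjusted p under 0.05 there were 901 genes, none of them a member, and DESeq2 called 186 genes but no member. *Gzmb* had a log2 fold change of 1.75 with a 95% interval of -0.672 to 4.16 and an adjusted p of 0.658, although both co-cultured libraries lay above both libraries of keratinocytes alone. The intervals of *Prf1* (-2.07 to 4.73) and *Nkg7* (-2.03 to 3.16) also held changes of several fold in either direction, and that of *Lamp1* was narrower (-0.666 to 0.917). In a fit of 8 libraries, in which the effects of co-culture on keratinocytes and on T cells were compared, 0.053% of 13202 genes were called higher in keratinocytes and 0.523% lower, and none was a member. The differences ranged from -2.40 (*Gzma*) to 1.29 (*Prf1*) on the log2 scale, with adjusted p of 0.919 and 0.945, and that of *Gzmb* was 0.06 with an interval of -2.02 to 2.13.

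The genes around the granule were counted by lists, to be read against the shares of all genes called (2.32% higher and 4.22% lower in keratinocyte medium, 4.59% and 5.72% in co-culture). Of 7 genes that activate or hold granzymes and perforin, 1 was called higher in keratinocyte medium, and 2 were higher and 1 lower in co-culture, both against activated T cells. *Ctsw*, a cathepsin of killer lymphocytes, stood at 23.8 and 26.99 RPKM in activated T cells, 90.7 and 75.0 RPKM in keratinocyte medium, and 121 and 64.6 RPKM in co-culture. In this order of groups it rose by 1.84 (SE 0.351, adjusted p 0.0261) and 2.03 (SE 0.353, adjusted p 0.0140) on the log2 scale. *Ctsl*, a lysosomal cathepsin, rose by 4.09 in co-culture (adjusted p 0.00316), and it was the only gene of the 7 lists that was called against T cells in keratinocyte medium (3.39, adjusted p 0.0131). It stood at 25.2 and 25.3 RPKM in co-cultured T cells, 82.1 and 89.7 RPKM in co-cultured keratinocytes, and 152 and 153 RPKM in keratinocytes alone. The keratin gene *Krt14* was at 61.6 and 16.8 RPKM in the co-cultured T cells and at most 1.06 RPKM in the other T cells. In co-cultured keratinocytes *Krt14* was at 7926 and 11840 RPKM. The part of keratinocyte RNA in the *Ctsl* level was not tested. *Calr*, a chaperone that holds perforin, fell by 1.22 in co-culture (adjusted p 0.0363). It stood at 570.5 and 417 RPKM in activated T cells, 263 and 215 RPKM in keratinocyte medium, and 203 and 167 RPKM in co-culture. Its libraries in keratinocyte medium were thus also below the activated ones. *Cst7*, an inhibitor of granule cathepsins, was at 94.96 to 107 RPKM in all 6 T-cell libraries and was not called.

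Of 15 genes for transport, docking and fusion of granules, edgeR called 0 in any comparison, which is near these shares for a list of this size, with a median log2 fold change of 0.18 in keratinocyte medium and 0.08 in co-culture against activated T cells. *Rab7* and *Vti1b*, the 2 with the highest mean RPKM over the 6 T-cell libraries, had log2 fold changes of -0.12 and -0.06 in keratinocyte medium and -0.30 and -0.29 in co-culture. Of 10 genes of lysosome and granule membranes, among them the member *Lamp1*, 2 were called higher in co-culture. These were *Npc1*, a cholesterol transporter (1.90, adjusted p 0.0143), and *Scarb2*, the receptor of a lysosomal hydrolase (1.15, adjusted p 0.0430). *Npc1* was at 4.77 and 3.92 RPKM in activated T cells, 11.5 and 8.04 RPKM in keratinocyte medium and 16.4 and 12.2 RPKM in co-culture. *Scarb2* was at 9.48 and 8.85, 19.6 and 18.1, and 18.6 and 16.9 RPKM in the same groups, so that both genes were above the activated libraries in the absence of keratinocytes too. The most abundant of this list over the 6 T-cell libraries, *Ctsd* and *M6pr*, were not called (log2 fold changes in co-culture of 1.2 and -0.60).

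Some serpins protect cells from granzymes. Of the 7 serpins listed, which may not all inhibit granzymes, 1 was called higher and 1 lower in keratinocyte medium, and 0 in co-culture. *Serpinb9*, the intracellular inhibitor of granzyme B, stood at 110 and 88.0 RPKM in activated T cells, 19.4 and 23.1 RPKM in keratinocyte medium, and 15.9 and 37.3 RPKM in co-culture. It fell by 2.06 in keratinocyte medium (adjusted p 0.0429) and had a log2 fold change of -1.66 in co-culture (adjusted p 0.0603). *Serpinb6a* rose by 1.93 in keratinocyte medium (adjusted p 0.0474). It stood at 4.92 and 10.8 RPKM in activated T cells and at 24.5 and 29.9 RPKM in keratinocyte medium. In co-culture it was at 22.8 and 22.6 RPKM, above both activated libraries as well, though without a call. *Serpinb6b* was at 58.7 to 162 RPKM in the T-cell libraries and was not called.

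Of 12 death receptor genes and genes of their signal, 1 was called lower in keratinocyte medium, and 1 higher and 2 lower in co-culture. *Fas*, the receptor of Fas ligand, stood at 6.67 and 9.44 RPKM in activated T cells, 15.6 and 14.6 RPKM in keratinocyte medium, and 21.4 and 17.8 RPKM in co-culture, and its log2 fold change in co-culture was 1.46 (adjusted p 0.0473). *Lta*, the lymphotoxin α gene, fell by 3.34 in keratinocyte medium and 2.97 in co-culture (adjusted p 0.0138 and 0.00941). *Tnfrsf10b*, the TRAIL receptor of mice, fell by 3.30 in co-culture (adjusted p 0.0370). It stood at 4.85 and 3.97 RPKM in activated T cells and at 0.855 and 0.274 RPKM in keratinocyte medium. In co-culture it was at 0.620 and 0.178 RPKM (30 and 8 exon reads). It was thus below the activated libraries in the absence of keratinocytes too.

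Among 11 other cytotoxic lymphocyte genes that passed the filter, 1 was called higher and 3 lower in keratinocyte medium, and 1 higher and 2 lower in co-culture. *Ifng*, which encodes IFN-γ, stood at 613 and 589 RPKM in activated T cells and at 3.26 to 7.20 RPKM in the other T cells, and fell by 6.36 and 6.77 (adjusted p 0.00345 and 0.00162). *Xcl1*, a chemokine gene, fell by 3.64 and 3.39 in the same order, and *Slamf7* fell by 2.31 in keratinocyte medium. *Klrd1*, the CD94 subunit of NKG2 receptors, moved the other way, from 11.4 and 13.6 RPKM in activated T cells to 94.7 and 212 RPKM in keratinocyte medium and 178 and 539 RPKM in co-culture (log2 fold changes 3.79 and 5.08, adjusted p 0.0231 and 0.00822). *Ccl5*, a chemokine gene with the highest mean level of this list over the 6 T-cell libraries, stood at 68.0 and 323 RPKM in activated T cells and was not called.

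Of 15 transcription factors of the cytotoxic programme, 1 was called higher and 2 lower in keratinocyte medium, and 0 higher and 2 lower in co-culture. *Irf4*, a factor induced by T-cell receptor signals, fell by 3.11 and 3.08 (adjusted p 0.0122 and 0.00693). *Bhlhe40* fell by 1.75 and 2.24, and *Tcf7*, a factor of naive and memory T cells, rose by 2.25 in keratinocyte medium (adjusted p 0.0401). *Klf2* was not called. *Eomes* and *Tbx21*, factors that promote *Prf1* and *Gzmb* expression, had log2 fold changes of -2.05 and -1.12 in keratinocyte medium with adjusted p of 0.0932 and 0.137.

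**Figure D5:**
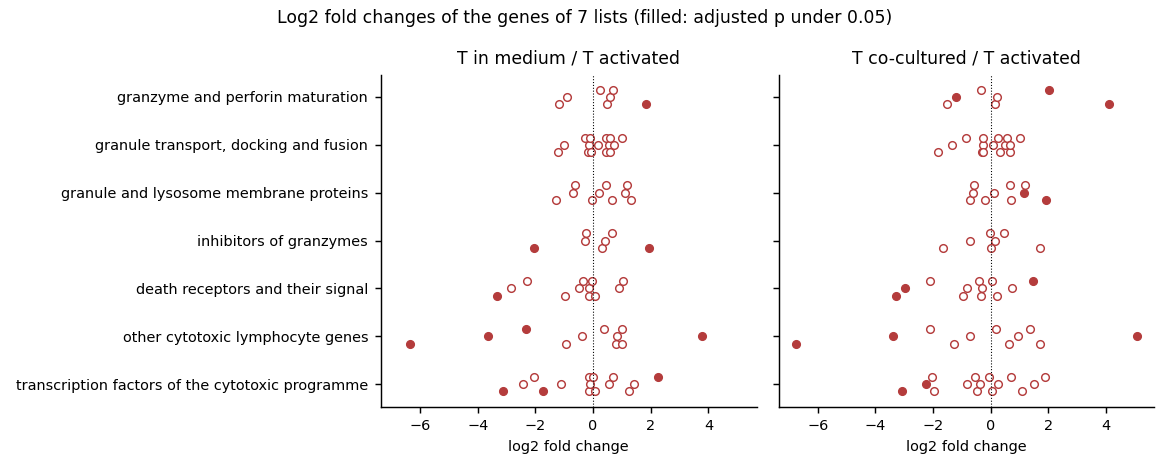
Log2 fold changes of the tested genes of 7 lists in T cells in keratinocyte medium and in co-cultured T cells, both against activated T cells. Each point is a gene and filled points passed an adjusted p of 0.05. Of all genes tested 2.32% and 4.59% were called higher and 4.22% and 5.72% lower. Ifng (-6.36 and -6.77) and Klrd1 (3.79 and 5.08) lie farthest from 0.

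Over the 6 T-cell libraries and the 6242 genes averaging at least 5 RPKM, those whose log2(RPKM + 1) was most like that of *Gzmb* were *Ppp2cb*, *Mapkapk3* and *Coq5*, with Pearson's r of 0.993, 0.992 and 0.988. Those most like *Prf1* were *Llph*, *Zpr1* and *Ptpn1*, with r of 0.999, 0.999 and 0.998. The r between *Gzmb* and *Prf1* was 0.874. These values describe 6 libraries in 3 groups and carry no test. *Ppp2cb* averaged 59.95 RPKM in activated T cells, 39.1 RPKM in keratinocyte medium and 47.1 RPKM in co-culture, and *Llph* averaged 62.3, 21.98 and 22.3 RPKM in the same groups.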

How the data were processed

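The authors made poly(A) libraries (NEBNext Ultra II), read single ends of 59 bases, and aligned them to GRCm38 (the build in the submitters' processing notes) with CLC Genomics Workbench 7.5.1 at default settings. The annotation release is not given in the sources used here. Per gene, the deposited tables hold raw counts of total, unique and intron reads and the authors' RPKM values, written with decimal commas. 3759 genes, T-cell receptor genes among them, have no exon length and hence no exon reads, and for these whole-gene reads were used.

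Counts of exon reads were tested with edgeR 4.0.16 under R 4.3.3 (low counts removed by filterByExpr, TMM, glmQLFit and glmQLFTest, Benjamini-Hochberg adjustment over all genes that passed). The SE is the log2 fold change divided by the square root of F. The 6 T-cell libraries, the 4 keratinocyte libraries, and for the difference of effects 8 libraries without the activated T cells were fitted. DESeq2 1.42.0, limma 3.58.1 on log2(RPKM + 1) or log2(RPKM + 0.1) and other settings served as alternatives. The fits were tested on simulated data. Read floors cover counting error only. Python 3.11.15 was used for tables and plots.

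The genes and the lists were chosen with earlier results of these data known. All members were named, and of the lists the genes called, the 2 with the highest RPKM and those that a sentence needed, apart from 1 gene that is not reported here. Groups came from the labels, where replicates of T cells in keratinocyte medium and of co-cultured T cells are numbered in order only. Counts of replicates differed far beyond sampling noise, with a chi-square per degree of freedom of 89.1 to 199.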

Additional observations from a re-analysis of the deposited data

How the results depend on the processing

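Depth limits *Gzmc* and *Gzmm*, and 2 libraries a group limit every call. *Gzmb* and *Prf1* stayed lower than in activated T cells under all 15 alternatives, *Gzmb* called in 14 (keratinocyte medium) and 13 (co-culture), *Prf1* in 11 and 14. The cause was not tested for any change below. Genes called in keratinocyte medium against activated T cells numbered 1947 with DESeq2, 474 with limma on log2(RPKM + 0.1) and 1945 with no filter (776 in the report), and in co-culture 2368 with DESeq2 and 2425 with no filter (1222 in the report). With all 10 libraries, 1 and 0 members were called. Against keratinocyte medium, co-culture gave 87 (DESeq2), 66 (limma, + 1), 121 (limma, + 0.1), 141 (no filter), 0 (at least 10 reads in every library) and 83 genes (all 10 libraries), and 1 (*Gzmb*, DESeq2) or 2 members (*Gzma* and *Gzmb*, no filter). For the keratinocytes 186 (DESeq2), 11 (no filter), 4 (all 10 libraries) and 2 genes (replicate block) were called, and for the difference of effects 353 (DESeq2). Under the replicate block no member was called (*Gzmb* 1.74, adjusted p 0.186). Same-numbered keratinocyte libraries deviated together (r 0.67 over 10668 genes), but with 2 pairs and no label to tie them pairing is not established, and among T cells no block was fitted since the labels number only the activated libraries.

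Directions changed for values near 0. In keratinocyte medium *Lamp1* was 0.0091 with DESeq2, 0.0083 with TMM without keratinocyte genes, 0.28 with unique reads and 0.028 with all 10 libraries, and *Srgn* was -0.063 with library size. In co-culture *Lamp1* was -0.050 with library size, -0.075 and -0.076 with limma. *Prf1* against keratinocyte medium was -0.024 and -0.046 with limma, *Lamp1* in keratinocytes -0.0033 with TMM without keratinocyte genes, and the difference for *Gzmb* -0.035 with DESeq2.

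Leaving out 1 library gave 24 to 1067 genes and 0 to 3 members in keratinocyte medium (24 and 57 genes without its replicates 2 and 1, 62 without activated replicate 1), 266 to 1093 genes and 1 to 3 members in co-culture (266 without activated replicate 1, 498 without co-cultured replicate 2), 16 to 52 genes between these groups, 0 to 1164 in keratinocytes (1164 without co-cultured replicate 1, 21 without replicate 2) and 21 to 105 for the difference. The log2 fold changes that changed sign ranged, in keratinocyte medium, from -1.27 to 0.92 (*Gzma*), -0.19 to 3.52 (*Gzmk*), -0.22 to 0.18 (*Lamp1*) and -0.44 to 0.85 (*Srgn*), and in co-culture from -0.26 to 3.53 (*Gzma*) and -0.043 to 1.28 (*Srgn*). Between these groups they ranged from -0.30 to 0.52 (*Gzmm*), -0.060 to 0.34 (*Lamp1*), -0.16 to 0.69 (*Nkg7*), -0.44 to 0.43 (*Prf1*) and -0.092 to 0.83 (*Srgn*). In keratinocytes they ranged from -1.86 to 2.39 (*Gzma*), -0.38 to 2.81 (*Gzmk*), -0.996 to 2.05 (*Nkg7*), -0.10 to 3.83 (*Prf1*) and -0.86 to 2.27 (*Srgn*), and for the difference from -4.49 to 0.0086 (*Gzma*), -1.05 to 1.07 (*Gzmb*) and -0.21 to 3.77 (*Prf1*).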
